A study of Mus musculus with 29 samples.

Results

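Type 3 islands are stretches of the mouse genome that carried the H2Aub type 3 and were bordered on both sides by type 1. They were chosen by the type labels alone: of the 9092 type 3 segments in the authors' segmentation of chromosomes 1 to 19, the 2712 (29.8%) whose segments directly before and directly after were both type 1. The whole segmentation held 31563 segments of 5 types. The islands spanned 130.16 Mb, which was 27.8% of the type 3 length and 5.28% of the segmented length. No key to the 5 types was found in the sources used here. Types are called by their numbers below, without a level of the mark.

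H2Aub is histone H2A carrying a single ubiquitin, and it was measured by CUT&RUN, in which a nuclease held at the mark by an antibody releases the DNA around it. The series has 29 libraries in 16 groups, 24 for H2Aub and 5 for H3K27me3, the histone H3 methylation laid down by Polycomb repressive complex 2. Each library was made from 1 to 300 pooled oocytes or embryos, and the number is not given for 3 libraries. Wild-type H2Aub was profiled in germinal vesicle oocytes of a mixed B6/129 background carrying floxed Eed alleles (Eed fl/fl, 2 libraries) and in metaphase II oocytes of B6/DBA females (2 libraries). B6/DBA females mated with PWK males gave the zygotes (2 libraries), the inner cell mass (1 library) and the E6.5 epiblasts (2 libraries). The 2-cell embryos (3 libraries) came from both kinds of mother, and the 4-cell embryos and morulae (2 libraries each) from Eed fl/fl mothers, all with PWK fathers. The maternal knockout groups (germinal vesicle oocytes, 4-cell embryos and morulae, 2 libraries each) are labelled Gdf9-Eed (fl/fl), after the oocyte gene Gdf9, and the embryos had PWK fathers that brought an intact Eed allele. The controls labelled wild type in the oocyte, 4-cell and morula knockout comparisons also carried the floxed alleles. Control and PR-DUB embryos (labelled CTR and OE) were 4-cell embryos of B6/DBA females and PWK males, with 1 H2Aub and 2 H3K27me3 libraries in each group. A single H3K27me3 library came from B6/DBA germinal vesicle oocytes.

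The segmentation is a single track with no value for any library, so the depth behind a type call is unknown. No stage, Eed genotype or PR-DUB group could be compared, no replicate error could be given and no test was made. Results are therefore counts, lengths and densities, and intervals on shares are exact 95% Clopper-Pearson intervals that cover counting error only. Segments and genes next to each other on a chromosome are not independent, which these intervals do not take into account. Coordinates are counted from 1 on mm10. Genes are those of RefSeq on GRCm38.p6, the same build.

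As background, H2Aub is placed on lysine 119 of histone H2A by Polycomb repressive complex 1, whose Ring1 and Rnf2 subunits are the ubiquitin ligases, and PR-DUB, the complex of Bap1 and Asxl proteins, removes it. In many cells the mark lies over CpG-rich promoters of silent developmental genes, where variant complexes with the CpG-binding subunit Kdm2b bring it, and it is also spread thinly through much of the genome. CpG dinucleotides are rare in most mammalian DNA because methylated cytosines decay, and promoters that stay unmethylated in the germ line keep more of them.

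Examples of island promoters beside the promoters of their own flanks show the sequences that the results below concern. Shown are the 4 longest islands with exactly 1 protein-coding start among the start sites used here and at least 1 in each flank. The nearest flank start on each side is given. Some genes have no start site here, so these islands may hold other starts. Dapk2, a calmodulin-regulated death-associated protein kinase, starts 13.2 kb inside a 205 kb island on chromosome 9 (66145001 to 66350000). Ciao2a, of the cytosolic iron-sulfur assembly machinery, starts 18.4 kb outside it on the left and Herc1, a giant HECT-domain ubiquitin ligase, 0.45 kb outside it on the right. Each sequence is the 250 bases before the start from RefSeq on GRCm38.p6, read 5′ to 3′ on the gene's strand with CpG dinucleotides in capitals. The windows are chr9:66157976-66158225 for Dapk2, chr9:66126361-66126610 for Ciao2a and chr9:66350200-66350449 for Herc1, all on the plus strand.
Dapk2: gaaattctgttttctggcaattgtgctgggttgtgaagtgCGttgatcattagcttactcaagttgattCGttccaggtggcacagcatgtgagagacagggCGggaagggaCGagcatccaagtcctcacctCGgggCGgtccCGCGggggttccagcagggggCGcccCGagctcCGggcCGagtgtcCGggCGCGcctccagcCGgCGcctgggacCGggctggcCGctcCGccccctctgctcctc
Ciao2a: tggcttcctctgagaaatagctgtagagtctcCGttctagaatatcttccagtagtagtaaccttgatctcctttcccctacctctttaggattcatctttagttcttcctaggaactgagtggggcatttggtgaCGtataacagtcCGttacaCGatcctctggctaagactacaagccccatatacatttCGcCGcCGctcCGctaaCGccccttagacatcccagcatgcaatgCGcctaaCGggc
Herc1: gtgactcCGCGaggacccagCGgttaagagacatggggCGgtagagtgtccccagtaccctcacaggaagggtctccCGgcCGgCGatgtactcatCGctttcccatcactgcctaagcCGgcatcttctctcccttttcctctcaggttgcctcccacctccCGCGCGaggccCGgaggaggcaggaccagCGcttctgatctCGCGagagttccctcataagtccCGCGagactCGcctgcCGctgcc

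The Dapk2 window held 20 CpG dinucleotides, the Ciao2a window 11 and the Herc1 window 20. Scaled to base composition as the CpG ratio, the number observed over the number expected from the C and G content, Dapk2 had 0.756, Ciao2a 0.769 and Herc1 0.808. The island promoter was thus narrowly the lowest of these 3 by ratio, although it had the highest GC content (65.2% against 48.8% and 63.6%).

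Nrg4, a neuregulin that acts as a ligand of the Erbb4 receptor, starts 13.6 kb inside a 180 kb island of chromosome 9 (55270001 to 55450000). The neighbours are Fbxo22, an F-box protein, 61.1 kb to the left, and Etfa, the alpha subunit of the electron transfer flavoprotein of mitochondria, 62.2 kb to the right. The windows are chr9:55283626-55283875 on the minus strand for Nrg4, chr9:55208685-55208934 on the plus strand for Fbxo22 and chr9:55512244-55512493 on the minus strand for Etfa.
Nrg4: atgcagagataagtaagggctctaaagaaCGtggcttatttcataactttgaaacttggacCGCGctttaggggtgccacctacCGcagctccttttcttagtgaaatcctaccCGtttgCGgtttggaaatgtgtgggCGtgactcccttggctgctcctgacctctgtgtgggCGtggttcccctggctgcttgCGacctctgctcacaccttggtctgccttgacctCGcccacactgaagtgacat
Fbxo22: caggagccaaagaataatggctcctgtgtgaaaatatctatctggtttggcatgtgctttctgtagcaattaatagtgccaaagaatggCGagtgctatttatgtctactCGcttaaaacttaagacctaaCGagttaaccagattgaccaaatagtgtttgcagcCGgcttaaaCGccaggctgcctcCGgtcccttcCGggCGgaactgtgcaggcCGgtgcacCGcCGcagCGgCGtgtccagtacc
Etfa: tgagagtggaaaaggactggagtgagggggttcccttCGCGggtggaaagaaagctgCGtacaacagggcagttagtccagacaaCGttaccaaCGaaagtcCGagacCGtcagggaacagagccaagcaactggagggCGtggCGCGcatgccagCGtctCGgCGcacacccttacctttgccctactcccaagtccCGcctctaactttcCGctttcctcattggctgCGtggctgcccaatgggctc

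The Nrg4 promoter had 10 CpG dinucleotides and a CpG ratio of 0.566. The flank promoters had 13 and 0.819 (Fbxo22) and 16 and 0.740 (Etfa), so that both stood above the island promoter.

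Sidt1, a membrane protein related to the worm RNA transporter SID-1, starts 7.16 kb inside a 130 kb island of chromosome 16 (44210001 to 44340000). Usf3, an upstream transcription factor of the basic helix-loop-helix class, starts 36.6 kb to the left of the island, and Spice1, a spindle and centriole protein, 7.40 kb to the right. The windows are chr16:44332839-44333088 on the minus strand for Sidt1, and chr16:44173147-44173396 and chr16:44347151-44347400 on the plus strand for Usf3 and Spice1.
Sidt1: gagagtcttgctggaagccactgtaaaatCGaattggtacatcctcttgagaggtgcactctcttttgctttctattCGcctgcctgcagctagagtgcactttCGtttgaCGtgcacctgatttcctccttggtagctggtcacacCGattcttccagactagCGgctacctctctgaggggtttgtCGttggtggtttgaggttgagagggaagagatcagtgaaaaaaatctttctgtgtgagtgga
Usf3: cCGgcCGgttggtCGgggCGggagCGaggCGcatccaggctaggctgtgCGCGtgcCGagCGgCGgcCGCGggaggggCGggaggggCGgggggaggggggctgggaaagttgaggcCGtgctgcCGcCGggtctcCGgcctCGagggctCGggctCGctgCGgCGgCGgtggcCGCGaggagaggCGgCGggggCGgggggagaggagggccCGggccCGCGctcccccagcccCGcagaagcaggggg
Spice1: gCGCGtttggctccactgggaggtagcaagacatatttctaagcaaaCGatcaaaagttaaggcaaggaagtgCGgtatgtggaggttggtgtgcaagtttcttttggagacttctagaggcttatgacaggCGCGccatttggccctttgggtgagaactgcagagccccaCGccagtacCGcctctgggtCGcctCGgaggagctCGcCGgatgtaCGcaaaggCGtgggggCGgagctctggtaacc

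Sidt1 had 7 CpG dinucleotides and a ratio of 0.486, the fewest dinucleotides of the 12 promoters shown. Usf3 had 34 and 0.9001, and Spice1 had 15 and 0.783.

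Actn2, the alpha-actinin of the sarcomere Z-disc in heart and skeletal muscle, starts 54.3 kb inside a 125 kb island of chromosome 13 (12270001 to 12395000). Mtr, methionine synthase, starts 11.9 kb to the left and Heatr1, a nucleolar protein of ribosome biogenesis, 0.375 kb to the right of the island. The windows are chr13:12340733-12340982 and chr13:12258114-12258363 on the minus strand for Actn2 and Mtr, and chr13:12395125-12395374 on the plus strand for Heatr1.
Actn2: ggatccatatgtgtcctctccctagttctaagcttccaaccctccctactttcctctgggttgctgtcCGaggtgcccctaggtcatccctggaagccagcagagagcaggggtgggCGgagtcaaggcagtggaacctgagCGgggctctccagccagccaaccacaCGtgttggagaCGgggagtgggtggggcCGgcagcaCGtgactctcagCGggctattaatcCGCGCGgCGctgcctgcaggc
Mtr: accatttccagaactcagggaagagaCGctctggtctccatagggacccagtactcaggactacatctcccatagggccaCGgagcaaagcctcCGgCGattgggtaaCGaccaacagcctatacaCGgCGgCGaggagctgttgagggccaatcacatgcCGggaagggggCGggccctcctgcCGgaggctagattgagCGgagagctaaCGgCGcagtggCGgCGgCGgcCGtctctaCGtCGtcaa
Heatr1: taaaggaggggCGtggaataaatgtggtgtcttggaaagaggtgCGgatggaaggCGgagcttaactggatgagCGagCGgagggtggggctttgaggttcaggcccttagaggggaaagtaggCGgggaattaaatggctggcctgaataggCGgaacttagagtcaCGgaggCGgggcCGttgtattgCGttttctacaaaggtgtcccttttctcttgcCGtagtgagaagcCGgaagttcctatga

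Actn2 had 12 CpG dinucleotides and a ratio of 0.481, against 20 and 0.835 in Mtr and 13 and 0.891 in Heatr1. In all 4 of these islands the island promoter had the lowest CpG ratio of its 3. The starts of Herc1 and Heatr1 lie nearer to the border than the 5 kb step of the segmentation, so their side of the border is not well resolved.

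Over all islands this order was the most frequent of the 3 possible ones, but not the rule. In 400 islands both the island and its 2 flanks held a protein-coding start, and for each segment the median CpG ratio of its promoters was taken. The island lay below both flanks in 212 islands (53.0%, interval 47.98 to 57.98%), between them in 119 (29.8%) and above both in 69 (17.2%, interval 13.7 to 21.3%). By GC content the split was close to even. The island was below both flanks in 126 (31.5%), between them in 141 (35.2%) and above both in 133 (33.2%).

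All 3075 island promoters together had a median CpG ratio of 0.622 (quartiles 0.330 and 0.821) and a median of 13 CpG dinucleotides in 250 bases. The 4389 flank promoters had a median ratio of 0.677 (quartiles 0.270 and 0.892) and the same median of 13. The 5060 promoters of other type 3 segments stood at 0.613 (above islands when each gene or segment was counted once), all 20085 promoters of the segmented chromosomes at 0.547, and the 2005 promoters of type 1 segments that touch no island at 0.429. The spread of the flanks was wider at both ends. A ratio of at least 0.8 was found in 27.5% of island promoters and 35.9% of flank promoters, and a ratio under 0.2 in 14.2% and 20.0%. Median GC content was 58.8% in islands, 55.6% in flanks and 58.8% in other type 3 segments.

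**Figure D1:**
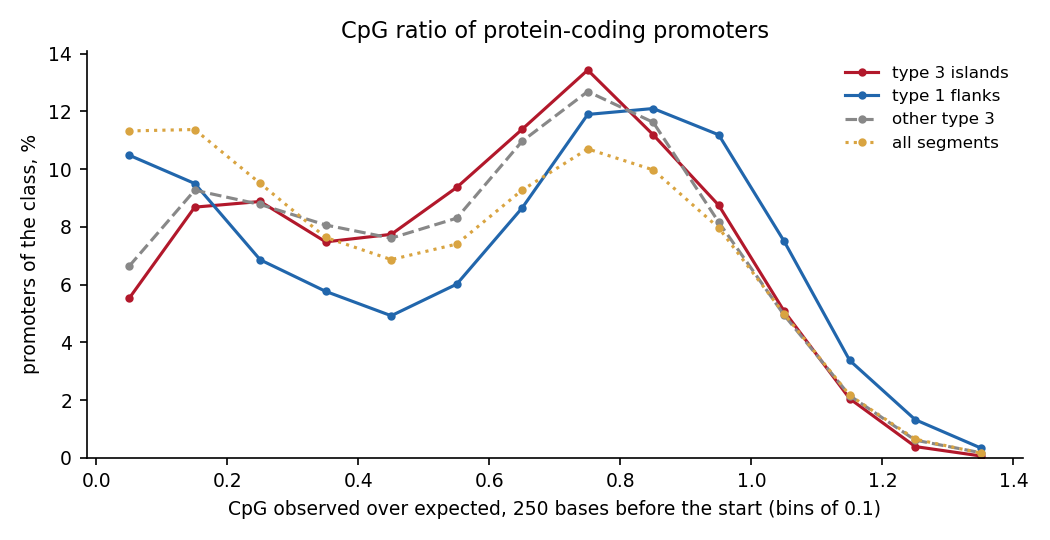
CpG observed over expected in the 250 bases before each protein-coding start (x axis, bins of 0.1) against the percentage of the promoters of that class (y axis), for islands, their type 1 flanks, other type 3 segments and all segments. Island promoters peak at a ratio between 0.7 and 0.8 (13.4% of them), while flank promoters are more frequent at both ends, with 35.9% at 0.8 or above and 20.0% under 0.2.

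Several short motifs were looked for on both strands of the same 250 bases. GGGCGG, the core of the GC box bound by Sp and Kruppel-like factors, was present in 53.1% of island promoters, 44.2% of flank promoters, 52.0% of promoters in other type 3 segments and 43.4% of all promoters. TATAAA, the TATA box, was present in 6.63%, 10.03%, 8.34% and 11.7% of the same classes. CCAAT was found in 36.2%, 37.5%, 34.3% and 35.3%, and CACGTG, the E-box of Myc and Usf proteins, in 7.06%, 7.95%, 7.59% and 6.69%. Islands thus shared the higher GC box share with other type 3 segments, and had the lowest TATA share of these 4 classes. That TATA share was close to those of type 3 between 2 segments of type 2 (6.88%) and between 2 of type 4 (6.98%). Type 3 with type 4 on 1 side only had 8.56%. GGGCGG holds a CpG, so its share follows the CpG content in part, and CACGTG holds one as well. TATAAA is made of A and T only, so its share may vary with GC content, which was not tested. Type 5 promoters, with a median GC content of 40.8%, had a TATA share of 30.0%. Other type 3 segments had the same median GC content as islands (58.8%) and a TATA share of 8.34%. A match is a run of letters and not a bound site.

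The islands were short. Their median length was 30 kb (quartiles 15 and 60 kb, 10th and 90th percentiles 10 and 110 kb), with a mean of 48.0 kb and a range from 10 to 520 kb. Other type 3 segments had the same median of 30 kb (quartiles 15 and 65 kb). Islands of 10 kb numbered 493 (18.2%), and the 302 islands over 100 kb (11.1%) held 51.225 Mb, or 39.4% of the island length. None was 5 kb long, the step of the segmentation. The same was true of type 3 segments between 2 segments of type 2, type 4 or type 5, whereas 5 kb type 3 segments did occur between neighbours of different types, with 149 between types 1 and 4.

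The type 3 segments just outside the rule were those with type 1 on 1 side only. Type 4 lay on the other side of 1570 of them, type 2 of 985 and type 5 of 222. Type 3 between 2 segments of type 2 occurred 1029 times and between 2 of type 4 709 times. The islands were therefore the most frequent setting in which a type 3 segment was found.

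The type 1 around the islands was itself finely divided. Of 7945 type 1 segments, 4011 (50.5%) touched an island, 2598 of them 1 island and 1413 an island on each side. Counted once per border, flanks had a median length of 45 kb (quartiles 25 and 100 kb). An island was shorter than both of its flanks in 1144 cases (42.2%) and longer than both in 585 (21.6%).

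Most islands came in runs, in which types 1 and 3 alternated. The 2712 islands formed 1299 runs. In 699 runs there was a single island, and the other 2013 islands (74.2%) stood in 600 runs of 2 or more. There were 16 runs of at least 10 islands, with 193 islands among them. The type 1 segment at the end of a run met a type 3 segment that was no island at 1288 of 2598 run ends (49.6%), type 2 at 1006 (38.7%), type 5 at 238 (9.16%) and type 4 at 55 (2.12%).

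The longest run held 19 islands of 10 to 120 kb in 2.415 Mb of chromosome 3 (94490001 to 96905000). Islands took up 38.1% of it and contained 39 protein-coding genes, with 44 in the type 1 between them. Among the island genes were the replication-dependent histone genes H2ac20, H2ac21, H2bc18, H2bc21, H3c13 and H4c14, the lysosomal proteases Ctsk and Ctss, the extracellular matrix gene Ecm1 and Txnip, an inhibitor of thioredoxin. The histone cluster was split, since H2ac18, H2ac19, H3c14 and H3c15 lay in type 1 of the same run. A run of 15 islands on chromosome 8 (105540001 to 107770000) was 46.4% island, with 22 genes in islands, such as Cdh3 (P-cadherin) and Has3 (hyaluronan synthase), and 32 in its type 1, among them Cdh1 (E-cadherin) and Ctcf. A run of 13 on chromosome 5 (122785001 to 124710000) was 60.0% island with 27 island genes, Kdm2b among them. A run of 12 on chromosome 11 (76725001 to 78755000) was 50.0% island with 28 island genes, including Foxn1, the thymic epithelial factor, and the serotonin transporter Slc6a4. The genes named in these runs were picked after their positions were seen.

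The second longest run stood apart from these. It had 18 islands of 10 to 40 kb in 2.45 Mb of chromosome 12 (17775001 to 20225000), of which only 14.1% was island. No protein-coding gene lay in any of its islands, and 16 lay in its type 1, all but Zfp996 and 5730507C01Rik under provisional Gm or LOC names.

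Every chromosome had islands, between 81 on chromosome 19 and 201 on chromosome 1. Their density was 1.11 ± 0.161 per Mb (SD over 19 chromosomes), from 0.841 on chromosome 14 to 1.42 on chromosome 10. As a share of the type 3 segments of a chromosome they ranged from 24.6% on chromosome 13 to 37.0% on chromosome 10, with a mean of 29.8% ± 2.97 (SD, 19 chromosomes). Across the 19 chromosomes, island density and protein-coding genes per Mb had a Pearson r of 0.458 and a Spearman rank correlation of 0.560, and r was 0.494 without chromosomes 7 and 11, the 2 farthest in gene density. These correlations describe chromosomes of a single track.

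Gene starts were denser in islands than in the type 1 around them and in the rest of type 3. RefSeq start sites covered 16457 of the 20558 protein-coding genes, so a segment without a listed start can still hold one. They were used for 18 chromosomes, and those of chromosome 18 were not used here. On these 18, islands held 3075 protein-coding starts in 126.07 Mb, or 24.4 per Mb. Their type 1 flanks held 4389, or 12.97 per Mb, other type 3 segments 5060, or 15.5 per Mb, and all segments together 20085, or 8.47 per Mb. Type 3 between 2 segments of type 2 had 10.5 per Mb, and type 3 between 2 of type 4 had 14.3. Type 3 with type 4 on 1 side only had 17.5 per Mb, the nearest of these to the islands. The density of type 3 with type 1 on 1 side only was not computed separately. In the first 5 kb inside a type 1 border, islands had 34.3 starts per Mb and other type 3 segments 34.9. At 15 to 20 kb inside the values were 22.0 and 16.1. A start lay in 1305 of 2618 islands (49.8%, interval 47.9 to 51.8%), against 38.1% of other type 3 segments (interval 36.9 to 39.4%) and 42.4% of flanks (interval 40.9 to 44.0%), although flanks were longer.

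The order was repeated along the genome. Islands had more starts per Mb than flanks on 18 of 18 chromosomes and more than other type 3 segments on 17 of 18. The exception was chromosome 10, with 16.9 per Mb in islands and 18.02 in other type 3 segments, which was also the chromosome with the most islands per Mb. Over chromosomes the means were 24.1 ± 6.32 per Mb in islands, 12.9 ± 3.03 in flanks and 15.4 ± 3.31 in other type 3 segments (SD, 18 chromosomes). Chromosome 14 had the lowest island value, 15.8 per Mb, only a little above its flanks at 14.2.

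The excess over other type 3 segments was also seen between segments of like length. Among segments of 15 to 25 kb, 35.6% of 817 islands and 25.2% of 1643 other type 3 segments held a start. At 55 to 100 kb the shares were 72.3% of 451 and 54.8% of 1117, and at 105 to 200 kb 81.3% of 230 and 68.1% of 653. In the shortest class of 10 kb the shares were closer, 26.1% of 475 and 21.9% of 622, with overlapping intervals (22.2 to 30.3% and 18.7 to 25.3%). Densities were highest in the 10 kb class, 34.7 per Mb in islands and 24.9 in other type 3 segments, and lay between 21.6 and 26.3 per Mb in longer islands against 14.9 to 16.1 in other type 3 segments.

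**Figure D2:**
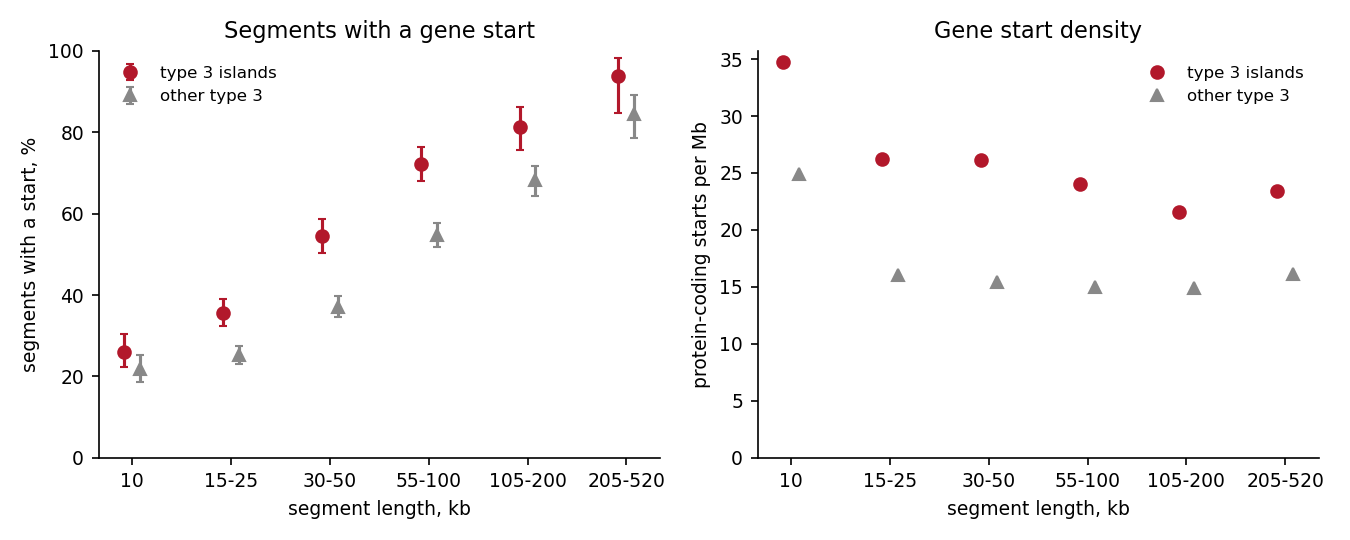
Share of segments with a protein-coding start, with exact 95% intervals (left), and starts per Mb (right), by segment length in kb, for islands and other type 3 segments. The island point is the higher of the pair in every length class, and the intervals overlap at 10 kb and at 205 to 520 kb.

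Starts were concentrated just inside the island border, and many of them pointed outwards. In steps of 5 kb from the 5223 borders that could be used, the density rose from 16.7 starts per Mb in the last 5 kb of type 1 to 34.3 per Mb in the first 5 kb of the island, then fell to 25.8 in the next step and 21.7 at 10 to 15 kb. Of the 896 starts in the first 5 kb inside, 542 (60.5%, interval 57.2 to 63.7%) were transcribed away from the island, into the flank. In the last 5 kb of type 1 before the border the outward share was 300 of 431 (69.6%, interval 65.02 to 73.9%), and from 10 to 15 kb inside the island it was 155 of 310 (50.0%). Because 10 kb islands reach only into the first step inside, islands of 60 kb or more were also taken alone, a choice made after the profile had been seen. There the densities were 21.6 per Mb just outside, 40.1 just inside and 26.5 in the next step.

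Gene 3′ ends showed a different profile. They were densest in the last 10 kb of type 1, with 20.3 and 21.3 per Mb, and dropped to 15.8 per Mb in the first 5 kb inside the island. Of the 549 3′ ends in the last 5 kb of type 1, 339 belonged to genes transcribed towards the island and 210 (38.3%, interval 34.2 to 42.5%) to genes transcribed away from it. At the type 1 side of the border, genes reading towards the island thus supplied more of the 3′ ends, and genes reading away from it more of the starts.

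The same step was present where type 1 met type 3 segments that were no islands. At those 2670 borders the density went from 18.3 starts per Mb outside to 34.9 inside, and 64.4% of the starts just inside (interval 59.8 to 68.9%) pointed into type 1. Where type 3 met type 2, starts went from 5.21 per Mb in type 2 to 15.6 in type 3, and 190 of the 333 starts just inside (57.1%, interval 51.5 to 62.4%) pointed into type 2. Where type 3 met type 4, the density was higher on the type 4 side, 19.2 against 15.8 per Mb, and 37.9% of the starts just inside type 3 (interval 32.7 to 43.3%) pointed to type 4. A higher density inside type 3 and an outward majority just inside were thus found at the borders with type 1, of islands or not, and with type 2, and not at those with type 4.

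**Figure D3:**
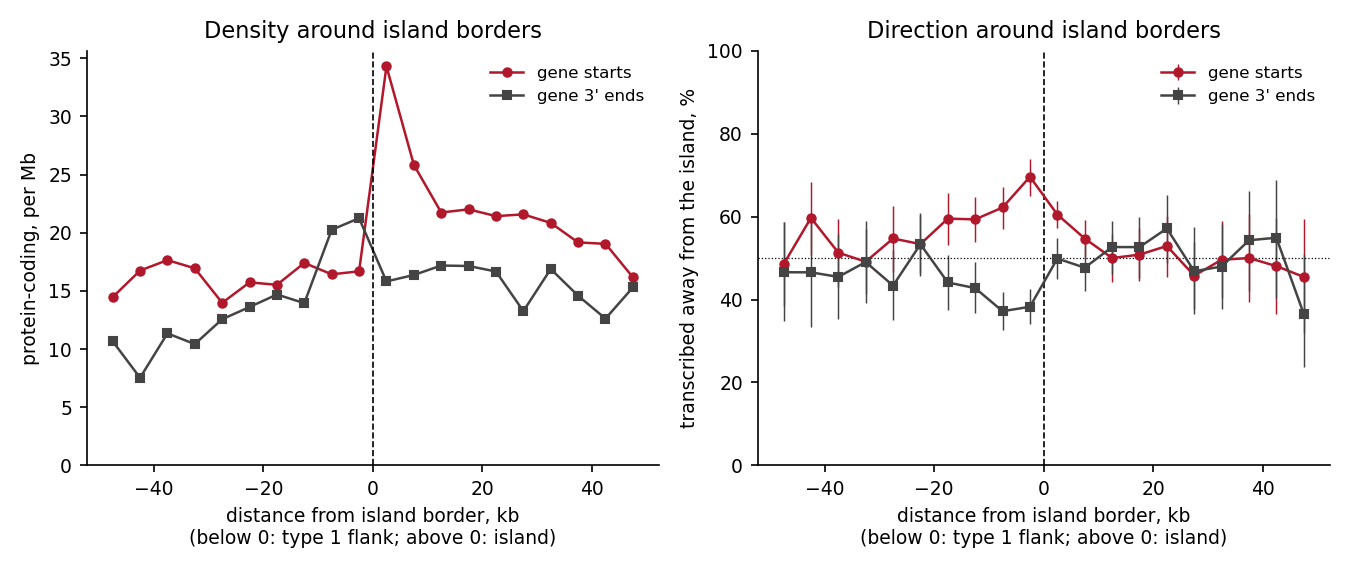
Left, protein-coding starts and 3′ ends per Mb by distance in kb from the island border, with type 1 below 0 and the island above 0. Right, the percentage of them transcribed away from the island, with exact 95% intervals. Starts jump from 16.7 to 34.3 per Mb across the border and 3′ ends fall from 21.3 to 15.8. The outward share of starts is 69.6% just outside and 60.5% just inside.

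For whole genes the same asymmetry could be counted. With each gene reduced to its 2 ends, 2515 of 16457 genes (15.3%) had their 5′ end in an island and 2025 (12.3%) their 3′ end. The density of 5′ ends over that of 3′ ends was 1.24 in islands, 0.872 in the flanks and 1.03 in other type 3 segments. It was higher still in type 3 between 2 segments of type 2 (1.37) and in type 4 (1.27). Of the genes with the 5′ end in an island, 1486 (59.1%) ended in the same island and had a median length of 9.60 kb. Another 754 began in an island and ended in a flank, with a median length of 28.1 kb. The reverse course, from a flank into an island, was taken by 349 genes with a median length of 26.8 kb. Starts of opposite direction within 1 kb of each other, the arrangement of divergent gene pairs, made up 12.7% of island starts (interval 11.5 to 13.9%), 19.6% of flank starts (interval 18.4 to 20.8%), 11.0% in other type 3 segments and 12.6% of all starts.

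By gene bodies the islands were less set apart than by starts. Assigned to the segment that covered most of the body, 2429 of 20558 protein-coding genes (11.8%) lay in an island, and 1849 of the 2429 (76.1%) lay in it wholly. That was 18.7 genes per Mb of island, 14.8 per Mb of flank, 13.2 per Mb of other type 3 and 8.35 per Mb over all segments. Type 3 with type 4 on 1 side only had 15.1 genes per Mb. Island genes were short, with a median of 12.3 kb against 22.0 kb in the flanks, 14.2 kb in other type 3 segments and 17.6 kb for all genes. A segment can hold most of a gene only if it is long enough, so gene lengths and segment lengths are not independent.

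Islands could be sorted by how protein-coding genes lay across them. A whole gene was held by 767 islands (28.3%, median length 70 kb), and a gene end but no whole gene by 876 (32.3%, median 25 kb). No gene was touched by 600 (22.1%, median 20 kb), and 469 (17.3%, median 15 kb) lay inside a single gene. In other type 3 segments the shares were 22.7%, 28.5%, 31.9% and 17.0%. The gene-free class was smaller among islands (interval 20.6 to 23.7% against 30.7 to 33.0%), and both classes with a gene end were larger (26.6 to 30.0% against 21.7 to 23.7% with a whole gene, 30.5 to 34.1% against 27.4 to 29.6% with an end only). The intervals of the class inside a gene overlapped. Type 3 between 2 segments of type 4 held a whole gene as often as islands (28.2%, interval 24.9 to 31.7%). Type 3 between 2 segments of type 2 did so less often (12.4%, interval 10.5 to 14.6%). Of the islands with only a gene end, 67.6% held a protein-coding start, against 53.9% in other type 3 segments of that class.

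The 469 islands inside a gene lay in 379 genes with a median length of 176 kb. Of the 450 on chromosomes with start sites, 32 held a start of that gene. Where the strand was known, the island's midpoint fell 60 times in the first of 4 equal parts of the gene, 110 times in the second, 129 times in the third and 83 times in the last, of 382. The longest was 130 kb in Magi1 on chromosome 6 (93800001 to 93930000). Magi1 is a scaffold of cell junctions, and its gene of 608 kb has 2 of its own starts in that island, 353.9 kb downstream of the 5′ end. Islands of 110 kb lay in Fmn1, the limb formin, and in Snx29, a sorting nexin, with no listed start in either. An island of 105 kb lay in Dym, the Golgi protein gene of Dyggve-Melchior-Clausen dysplasia, and 1 of 95 kb with a start of the gene in Crybg1. Islands of 90 kb lay in Camkmt, a calmodulin methyltransferase, Dennd1a, a Rab exchange factor, Efcab5, Fbxl13 and Mapk10, the neuronal Jun kinase Jnk3.

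Several islands could share 1 gene. Of the 379 genes, 73 held 2 or more. Snx29 held 5, of 10 to 110 kb and 220 kb in all, within a gene of 436 kb. Fry, a large protein of cell morphology, the kinase gene Mast4 and Pdzrn4 held 4 each, and Apbb2 and the 1106 kb Auts2, a partner of a variant Polycomb repressive complex 1, held 3 each.

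The longest islands were of very unequal gene content. The longest, 520 kb on chromosome 8 (25015001 to 25535000), held the genes Tm2d2, Htra4, Plekha2 and Tacc1 and the provisional Gm39147. The next, 490 kb on chromosome 7 (16615001 to 17105000), held 18 genes, among them the glutamine carrier Slc1a5, the hypoxia factor Hif3a, the Wnt antagonist Dact3 and the prostacyclin receptor Ptgir. An island of 485 kb on chromosome 14 (56950001 to 57435000) held the connexin genes Gja3, Gjb2 and Gjb6 and Cryl1. The 405 kb island of chromosome 6 (85960001 to 86365000) held Figla, the oocyte factor that drives zona pellucida genes, with Add2 and the growth factor Tgfa. On chromosome 17 (15060001 to 15460000) 400 kb held Dll1, a Notch ligand, with Ermard and Fam120b. On chromosome 5 (106990001 to 107375000) 385 kb held Tgfbr3, the betaglycan coreceptor, and Brdt, the bromodomain protein of the testis. Of the rest of the 10 longest, 380 kb on chromosome 19 held Calhm1, Calhm2, Neurl1a and Sh3pxd2a, 375 kb on chromosome 2 held the homeobox pair Dlx1 and Dlx2 with Itga6 and Metap1d, and 370 kb on chromosome 18 held only Ldlrad4.

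The fourth longest was the richest in genes. It spanned 425 kb of chromosome 19 (3895001 to 4320000) with 23 listed starts, fewer than its genes because some have no start site here. It held 33 protein-coding genes, all wholly inside. They included the glutathione transferases Gstp1, Gstp2 and Gstp3, the aldehyde dehydrogenases Aldh3b1, Aldh3b2 and Aldh3b3, the proton pump subunit Tcirg1, the mitochondrial complex I subunits Ndufs8 and Ndufv1, the phosphatase subunit Ppp1ca and the checkpoint gene Rad9a. A 185 kb island of chromosome 17 (34950001 to 35135000) held 23 genes in the class III part of the major histocompatibility complex, such as the heat shock genes Hspa1a, Hspa1b and Hspa1l, the Ly6g6 genes and Msh5. A 350 kb island of chromosome 9 (21790001 to 22140000) held 17, among them the erythropoietin receptor Epor and the neuronal RNA-binding gene Elavl3. A 335 kb island of chromosome 11 (120635001 to 120970000) held 16, with the fatty acid synthase Fasn, the Wnt deacylase Notum and the monocarboxylate carrier Slc16a3.

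Such islands were rare. No protein-coding gene had its largest part in 1616 of 2712 islands (59.6%), a single gene in 624, 2 genes in 204 and 3 in 99. Long genes also fitted into islands. Nhsl1, of 216 kb, lay wholly in a 255 kb island of chromosome 10 (18315001 to 18570000). Sh3pxd2a, the podosome scaffold Tks5, of 204 kb, the sialyltransferase St3gal3 of 203 kb, the homeobox gene Cux2 of 192 kb and Tgfbr3 of 183 kb followed. The next were Osbp2 (160 kb), Slc12a8 (147 kb), Macrod1 (141 kb), Rph3al (137 kb) and Itpk1 (136 kb).

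Gene lists were read against the 11.8% of all protein-coding genes whose largest part lay in an island, and by 5′ end against 15.3%. Counts by 5′ end use only members with a start site here, 16457 of 20558 genes over all. A share by 5′ end can therefore differ from the share by body because members drop out. A gene is said to lie in the type that holds its largest part, which was under 50% of the gene for 84 island genes, Dusp10 and Cdk6 among those named below. Over all genes, 37.3% lay in type 1, 21.7% in other type 3 segments and 14.01% in type 4. The lists were compiled with earlier results of these data known, and their shares are descriptions.

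Signalling lists were spread around the background. In the Wnt pathway 12 of 62 members lay in islands (19.4%, interval 10.4 to 31.4%), from the antagonist Dkk1 through the receptor Fzd5 to the cytoplasmic transducers Dvl1 and Gsk3a. In the Notch pathway it was 6 of 32 (18.8%), with the ligands Dll1, Dll3 and Dll4 and the target gene Heyl. In the Tgf-beta family 9 of 62 lay in islands (14.5%), such as the ligands Bmp8a, Bmp8b and Gdf11 and the Bmp antagonist Chrd. Counted by 5′ end, the Wnt list had 11 of 43 (25.6%), the Notch list 4 of 25 (16.0%) and the Tgf-beta list 8 of 41 (19.5%).

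Of the other signalling lists reported here, these had shares by gene body under 11.8%. In the Fgf pathway 1 of 34 members lay in an island (2.94%), the receptor Fgfr4, and in the Hippo pathway 1 of 21 (4.76%), the kinase Lats2. Of the MAP kinase phosphatases and feedback inhibitors 2 of 19 did (10.5%), Dusp7 and Dusp10. Of the axon guidance genes it was 7 of 64 (10.9%), such as the ephrin receptor Epha10, the netrin Ntn3 and the plexins Plxnb1 and Plxnb2. The intervals of these 4 lists all included 11.8%. By 5′ end the shares were 2 of 27 (7.41%), 3 of 17 (17.6%), 3 of 17 (17.6%) and 8 of 54 (14.8%) in the same order, so that the Hippo and phosphatase lists lay a little above the 15.3% of all genes.

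Transcription factor lists differed widely. Of the immediate early genes, which cells switch on within minutes of a stimulus, 7 of 27 lay in islands (25.9%, interval 11.1 to 46.3%), among them Btg1, Egr1, Egr4 and Fosl1. More of them, 12, lay in type 4, and 7 lay in other type 3 segments. Kruppel-like and Sp factors followed with 6 of 25 (24.0%), among them the erythroid factor Klf1, Klf11, Klf17 and Klf2, and nuclear receptors with 7 of 43 (16.3%), among them Esrra, Nr0b2, Nr1h3 and Nr2f6. Developmental transcription factors outside the Hox clusters were in islands in only 5 of 100 cases (5%, interval 1.64 to 11.3%), while 35 lay in other type 3 segments and 56 in type 4. The 5 were Dlx1 and Dlx2, which share the 375 kb island above, the trophoblast and T-cell factor Gata3, the endoderm factor Gata6, and Mixl1 of the primitive streak, the last named after its position was seen. Zinc finger protein genes had 67 of 388 members in islands (17.3%, interval 13.6 to 21.4%), among them Zfp1, Zfp105, Zfp108 and Zfp11, and 22.8% of their 5′ ends. Another 216 of the 388 lay in type 1.

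The genes of the ubiquitin mark itself were counted both by body and by 5′ end. Of 35 Polycomb complex genes 5 lay in islands (14.3%, interval 4.81 to 30.3%): Ring1, a ligase of the mark, Kdm2b and Phc1 of Polycomb repressive complex 1, Ezh1, the second methyltransferase of complex 2, and Yaf2, a Rybp relative named after its position was seen. Another 17 lay in type 1. By 5′ end it was 8 of 28 Polycomb genes (28.6%, against 15.3% of all genes), a small count for which no interval was computed. Of 14 H2A deubiquitinase genes 1 lay in an island by body, Usp44 (7.14%), with 10 in type 1. Of 16 genes of DNA methylation and demethylation 1 did, Dnmt1 (6.25%). Counted by 5′ end, these 2 lists had 1 of 11 (9.09%) and 2 of 13 (15.4%).

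Genes of the oocyte and early embryo were mixed. Of 24 oocyte genes 5 lay in islands (20.8%, interval 7.13 to 42.2%): Figla, the kinase Mos, Oas1d, the messenger RNA-binding Ybx2, and the zona protein Zp3, the last named after its position was seen. Of 21 pluripotency genes 2 did, Klf2 and Pou5f1 (9.52%), and of 22 trophectoderm and primitive endoderm genes 2, Gata3 and Gata6 (9.09%). Of 33 meiosis and piRNA genes 2 did, Msh5 and Tdrd5 (6.06%). By 5′ end these lists had 3 of 18 oocyte genes (16.7%), 3 of 13 pluripotency genes (23.1%), 1 of 13 trophectoderm and primitive endoderm genes (7.69%) and 5 of 28 meiosis and piRNA genes (17.9%). Mos, Oas1d and Gata6 have no start site here and were not counted by 5′ end. None of 19 genes of the 2-cell stage lay in an island, which allows a share of up to 15.8% as 3 counts of the total and 17.6% as the exact upper bound. Of these genes 17 lay in type 1. None of 45 imprinted genes did, which allows up to 6.67% as 3 counts of the total and 7.87% as the exact upper bound, both below the 11.8% of all genes. By 5′ end 1 of 35 imprinted genes was in an island (2.86%), and by body 17 of the 45 lay in type 4.

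Among housekeeping, cell cycle and carrier genes the share in islands varied. Of 41 genes of RNA polymerase II and Mediator 7 lay in islands (17.1%), such as Med11, Med25, Med29 and Polr2g, and 23 in type 1. Of 74 ribosomal protein genes 6 did (8.11%), among them Rpl23a, Rpl26, Rpl29 and Rpl8, and 53 lay in type 1. Of 34 proteasome subunit genes only Psmb6 did (2.94%), and 26 lay in type 1. Cyclins, cyclin-dependent kinases and their inhibitors had 4 of 34 (11.8%): Cdk6, Cdkn2c, E2f2 and E2f7, with 14 in type 1. Carriers of glucose and amino acids had 6 of 28 (21.4%, interval 8.30 to 41.0%), such as Slc1a3, Slc1a4, Slc1a5 and the insulin-regulated glucose carrier Slc2a4, with 3 in type 1. Counted by 5′ end, the carriers had 3 of 21 (14.3%), below the 15.3% of all genes. Slc1a5 and Slc2a4 lie wholly in islands but have no start site here, so they are not among the 21. The polymerase and Mediator list had 6 of 34 (17.6%) and the cyclin list 4 of 25 (16.0%) by 5′ end. Ribosomal protein genes had 2 of 53 (3.77%), without Rpl23a, Rpl29 and Rpl8, which have no start site here. Proteasome genes had 1 of 28 (3.57%).

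The large chemosensory families were nearly absent from islands. Of 1103 olfactory receptor genes 16 lay in islands (1.45%, interval 0.831 to 2.34%), and among them Olfr1351, Olfr1352, Olfr1353 and Olfr1356 lay close together on chromosome 10. Of 351 vomeronasal receptor genes 3 did (0.855%): Vmn1r204, Vmn1r210 and Vmn1r87. These are tandem families whose members share their surroundings, so that their number overstates the information in the counts.

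**Figure D4:**
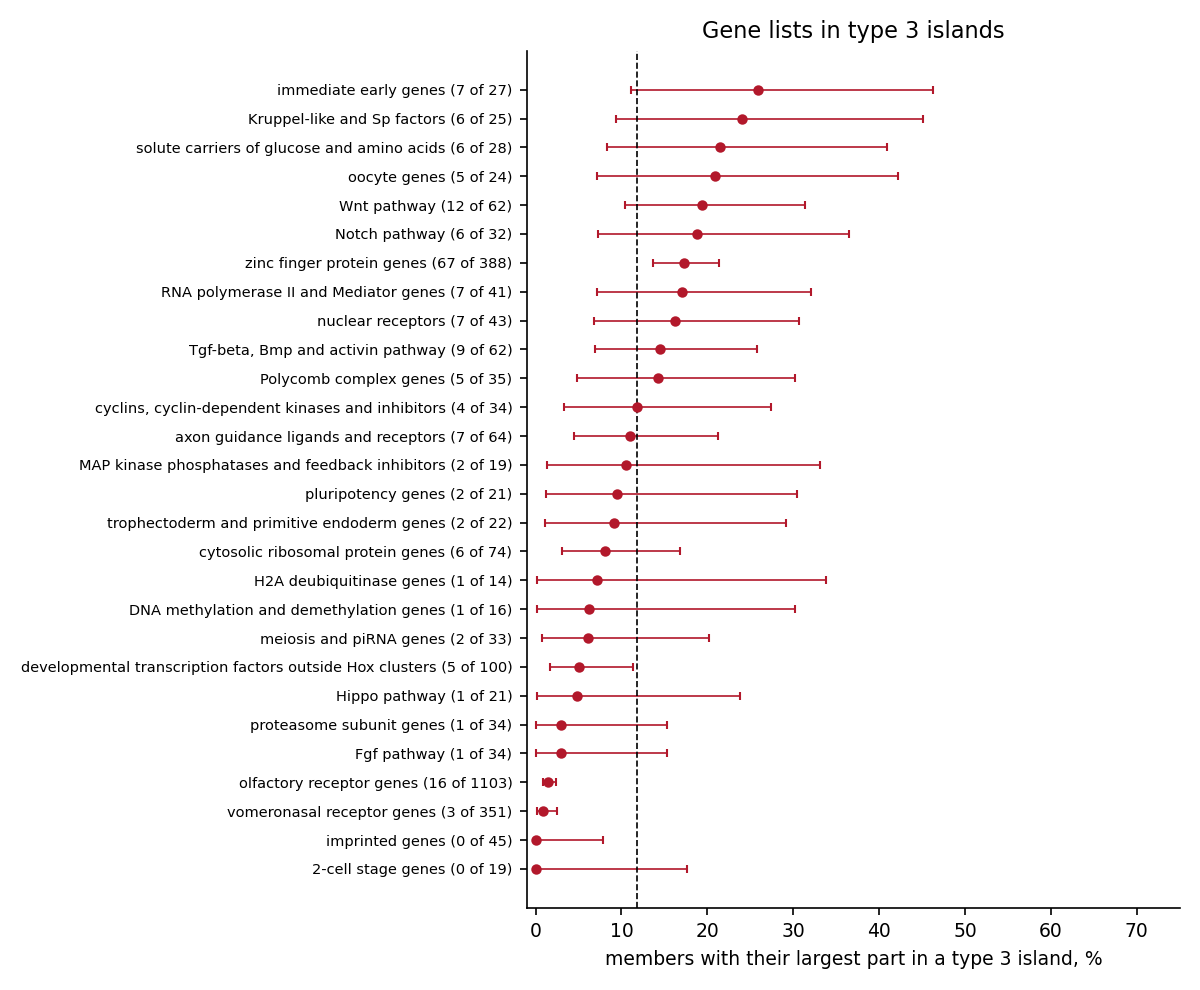
Percentage of each list's members with their largest part in a type 3 island (x axis), with exact 95% intervals, for 28 gene lists (y axis, counts in brackets). The dashed line is the 11.8% of all protein-coding genes. The interval of zinc finger protein genes lies above the line, and those of developmental transcription factors, imprinted, olfactory and vomeronasal receptor genes lie below it. Neighbouring genes are not independent, which none of these intervals takes into account.

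MicroRNA genes lay in islands at about the share of protein-coding genes. Of 1136 microRNA genes 131 (11.5%) were wholly in an island, and they were spread over 108 islands, of which 16 held 2 or more. Of the 39 genes in those 16 islands 36 matched the RefSeq sequence table. Following island length, the first mature sequences belong to Mir7083, Mir7084, Mir6943 and Mir6944. Shown here are pairs from the same island that share a seed, bases 2 to 8 of the mature strand that pair with targets, picked after the seeds had been seen. Seeds are in capitals.
mmu-miR-200b-3p: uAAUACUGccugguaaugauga
mmu-miR-429-3p: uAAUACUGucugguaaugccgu
mmu-miR-200b-5p: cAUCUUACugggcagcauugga
mmu-miR-200a-5p: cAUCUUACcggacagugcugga
mmu-miR-132-3p: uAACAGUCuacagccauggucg
mmu-miR-212-3p: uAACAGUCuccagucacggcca
mmu-miR-195a-5p: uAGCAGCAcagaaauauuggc
mmu-miR-497a-5p: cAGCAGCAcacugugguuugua

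The 3 genes Mir200a, Mir200b and Mir429, known for keeping epithelial identity by holding down Zeb factors, lay in a 90 kb island of chromosome 4 (156020001 to 156110000). The neuronal pair Mir132 and Mir212 lay in a 205 kb island of chromosome 11 (75120001 to 75325000), and Mir195a and Mir497, of the miR-15 family, in a 225 kb island of the same chromosome (70165001 to 70390000). Their lying in 1 island follows from how the pairs were chosen.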

How the data were processed

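The authors deposited 1 segmentation of H2Aub types, whose name says that it was made with ChromHMM, which assigns each genome bin to a state of a hidden Markov model. Its value is a label from 1 to 5, another kind of value than a level, and the sources used here do not name the libraries that entered it. Tools named in the submitters' processing notes are deepTools 3.0.2, Picard 2.8.0, Bowtie2 2.3.4.3 and Trim Galore 0.4.5, and the build is mm10.

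Segments were sorted, and no touching segments of 1 type needed merging (31563 before and after). In 261 bins of 5 kb (0.0530%) 2 segments overlapped and the shorter was used to place genes. Genes (46709, 20558 protein-coding) came from RefSeq, and 333 on scaffolds were left out. A gene belongs to the segment that covers the largest part of its body. Start sites, strand and sequences came from a RefSeq promoter table covering 18 chromosomes and 16457 protein-coding genes, many with several starts. Densities of starts and ends use those chromosomes only. Overlapping entries of opposite strands matched as reverse complements in 1588 of 1588 cases. A 3′ end is the other end of the gene.

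The members and lists were chosen with earlier results of these data known. Genes named by rule are those of the 10 longest islands with genes, the 5 with most genes, the first 4 members of each list in alphabetical order, the 10 longest genes wholly inside and the 10 longest islands inside a gene. Of the rule's 8 microRNA sequences only the genes are named. Some lists and genes that the rule takes are left out and not reported here. Scripts used Python 3.11.15, numpy 2.4.6, pandas 2.3.3, scipy 1.17.1 and matplotlib 3.10.9, and were tested on simulated segments. Alternatives were stricter flanks and lengths, all annotated genes, other promoter windows and 1 start per gene.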

Additional observations from a re-analysis of the deposited data

How the results depend on the processing

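Under other settings 117 values were recomputed. Of these, 102 stayed within the margin of their kind (1.5 times for counts and densities, the 95% interval for shares and medians). The other 15 moved, 2 of them among lists. Some values could not move, since no segments needed merging and no island was shorter than 10 kb. List shares made up 62 of the 117, many with wide intervals, so the count of 102 overstates how stable the results are. With both flanks at least 25 kb, 1551 islands of 75.605 Mb were left. Over all annotated genes the density was 36.0 genes per Mb, and 19.03% of islands lay inside a gene, 45.5% held a whole gene, 23.8% a gene end only and 11.7% no gene. With the whole window of 300 bases, the median CpG ratio was 0.653 in islands, 0.716 in flanks and 0.653 in other type 3 segments. With 1 promoter per segment it was 0.631 in islands, 0.713 in flanks and 0.640 in other type 3 segments. With 1 start per gene, a setting added after the data had been seen, it was 0.626, 0.687 and 0.631. Flanks stayed above both in these 3 settings, while islands lay above other type 3 segments in the first and below them in the others. By 5′ end, 22.8% of zinc finger genes and 15.3% of all genes lay in islands.

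Starts per Mb in islands were 1.82 to 2.03 times those in flanks and 1.31 to 1.62 times those in other type 3 segments in the settings tried. No paired analysis was possible because the segmentation has no value per library. Its depth is unknown, and a border is known only to the 5 kb step.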

Other observations

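Transfer RNA genes stood out among the noncoding genes. Of 386 on the segmented chromosomes, 97 lay in islands (25.1%, interval 20.9 to 29.8%), which is 0.746 per Mb against 0.138 in the type 1 flanks, 0.366 in other type 3 segments and 0.157 overall. They were clustered: 22 islands held all of them, 6 islands with at least 5 held 77, and a 205 kb island of chromosome 13 (21850001 to 22055000) held 31. The count thus rests on few places.

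Long noncoding RNA genes were at 9.06 per Mb in islands and 3.61 per Mb in the flanks, with 9.95 in other type 3 segments. Small nucleolar RNA genes went the other way, with 0.492 per Mb in islands and 0.796 in flanks. Other type 3 segments had 0.443 per Mb and all segments together 0.518, both near the islands. Pseudogenes were at 4.80 per Mb in islands, 5.51 in flanks and 3.15 in other type 3 segments.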
